A study of Mus musculus with 2 samples.

Results

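The cells described here are the microglia of library 2 in which 6 immediate early genes together made up less than 0.5% of the RNA. The cells were chosen by their measured UMI counts of 12 gate genes, from the 6448 cell barcodes of that library, a droplet-based 3' single-cell RNA library (10x Genomics chemistry, version 3). A barcode was kept with at least 1000 unique molecular identifiers (UMIs, the count of captured RNA molecules), at least 500 genes and at most 10% of UMIs from mitochondrially encoded genes, which left 2164 cells. Of these, 1565 cells (72.3%) had at least 0.5% of their UMIs in P2ry12, Cx3cr1, Tmem119, Csf1r, Selplg and Gpr34 and are called microglia. Among the 1565, 941 cells (60.1%, Clopper-Pearson 95% interval 57.7 to 62.6%) had less than 0.5% of their UMIs in Fos, Jun, Junb, Egr1, Atf3 and Ier2. They are called low microglia, and the other 624 are called high microglia. Both libraries of the series together held 18754 barcodes.

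The tissue was the hippocampus of wild-type C57BL/6 male mice aged 10 weeks, and each library was loaded with the pooled cells of 3 mice. The series compares digestion with enzymes for 30 min at 37 °C with mechanical dissociation at 4 °C, each followed by a Percoll gradient that removes debris and myelin. No label says which library had which treatment, so both are unassigned, and library 2 stands for neither. There is 1 library and no replicate, so no test between conditions was possible. All intervals here are at the 95% level and describe the error of counting molecules, while the spread between animals or between preparations was not measured.

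Microglia are the resident macrophages of the brain parenchyma. In the undisturbed brain they survey the tissue with motile processes, sense nucleotides through receptors such as P2ry12, and depend on signalling through Csf1r. Immediate early genes encode transcription factors and feedback regulators that are transcribed within minutes of a stimulus without new protein synthesis. In brain cells they are also known to be induced while tissue is being dissociated, together with chemokines and heat shock genes.

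Low and high microglia were separated by the very genes whose sum defines the limit. The difference in any other gene between the 2 classes comes from the same cells as that choice, and is given as a description. A gene outside the 12 gate genes was compared where it had at least 50 UMIs over both classes and at least 20 counts per 1000000 UMIs (CPM) in 1 class. It was called lower in low microglia at a CPM ratio (low over high) of 0.5 or less and higher at a ratio of 2 or more. A gene below 20 CPM in 1 class was compared only because of its level in the other class. For such a gene the filter itself favours a call, so counts of called genes in a list are descriptions. Of 6578 genes compared, 129 (1.96%) were lower and 71 (1.08%) were higher. The median log2 ratio over all 6578 was 0.19.

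Promoter sequence is shown for the 3 genes outside the gates whose ratio lay furthest below 1 by its interval. All 3 were below 20 CPM in low microglia and passed the filter only through high microglia. Their extreme ratios are thus in part fixed by the filter. Cxcl10 encodes a chemokine that attracts T cells, Fosb encodes a partner of Jun in the AP-1 transcription factor, and Tnf encodes a central inflammatory cytokine. The sequences are the 250 bases before each annotated start, 5′ to 3′ on the gene's strand, from RefSeq on build GRCm38.p6. All 3 genes lie on the minus strand. Capitals mark matches to TGACGTCA (the cyclic AMP response element, CRE), TGANTCA (AP-1), the CArG box of SRF and the NF-kB site, searched on both strands. The Cxcl10 window is chr5:92348890-92349139, the Fosb window chr7:19310046-19310295 and the Tnf window chr17:35202008-35202257.
Cxcl10: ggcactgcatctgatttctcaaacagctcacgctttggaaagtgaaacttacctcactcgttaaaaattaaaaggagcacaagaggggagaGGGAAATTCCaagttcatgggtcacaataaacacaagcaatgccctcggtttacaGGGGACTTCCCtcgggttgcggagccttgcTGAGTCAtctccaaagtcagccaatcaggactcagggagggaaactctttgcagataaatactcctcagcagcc
Fosb: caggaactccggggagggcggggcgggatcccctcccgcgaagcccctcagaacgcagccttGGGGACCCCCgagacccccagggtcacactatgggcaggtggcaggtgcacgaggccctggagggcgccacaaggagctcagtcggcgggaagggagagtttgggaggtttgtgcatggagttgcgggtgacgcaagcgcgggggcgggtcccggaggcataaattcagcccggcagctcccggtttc
Tnf: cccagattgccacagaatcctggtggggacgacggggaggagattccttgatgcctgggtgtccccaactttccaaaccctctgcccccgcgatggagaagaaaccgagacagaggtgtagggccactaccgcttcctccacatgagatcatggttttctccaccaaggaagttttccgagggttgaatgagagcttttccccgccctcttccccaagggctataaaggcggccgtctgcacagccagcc

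The Cxcl10 window held 1 AP-1 match and 3 matches to the NF-kB site, the last pair of which overlap in 1 run of capitals. The Fosb window held 1 NF-kB match, and the Tnf window held none of the 4 motifs. No match says only that these letters are absent from this stretch. Over whole windows of 300 bases (250 before the start and 50 after it), 83 of the 129 lower genes were matched by symbol, with 120 windows. An NF-kB match was in 18.3% of these windows, beside 10.5% of the 6633 windows of all genes compared and 8.46% of all 32851 windows of the table. The CArG box was in 5.0% (6 windows), beside 1.28% and 1.63%. A gene with several annotated starts gave several windows, which can overlap, so the windows are not independent. CRE matches were in 4.17% of the windows of lower genes, 3.41% of those of all genes compared and 1.79% of the whole table, and AP-1 matches were in 5.0%, 4.61% and 7.81%. Among the 49 matched genes of the 71 higher ones (55 windows), the shares were 5.45% for CRE, 5.45% for AP-1, 0% for the CArG box and 7.27% for the NF-kB site. A match is a run of letters, and binding was not measured.

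The immediate early share ran through the limit without a break. A median low cell had 0.0531% of its UMIs in the 6 immediate early gate genes, with an interquartile range of 0.0213% to 0.117%. Of the 941 cells, 143 (15.2%) had no UMI of the 6 genes, and their median depth was 4045 UMIs. In all, 670 cells (71.2%) lay below 0.1%. Of the others, 118 lay between 0.1 and 0.2% and 153 between 0.2 and 0.5%. Directly around the limit, 43 cells lay between 0.4 and 0.5% (median 5481 UMIs) and 37 between 0.5 and 0.6% (median 6539 UMIs). High microglia had a median of 1.72% and reached 6.35%.

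**Figure D1:**
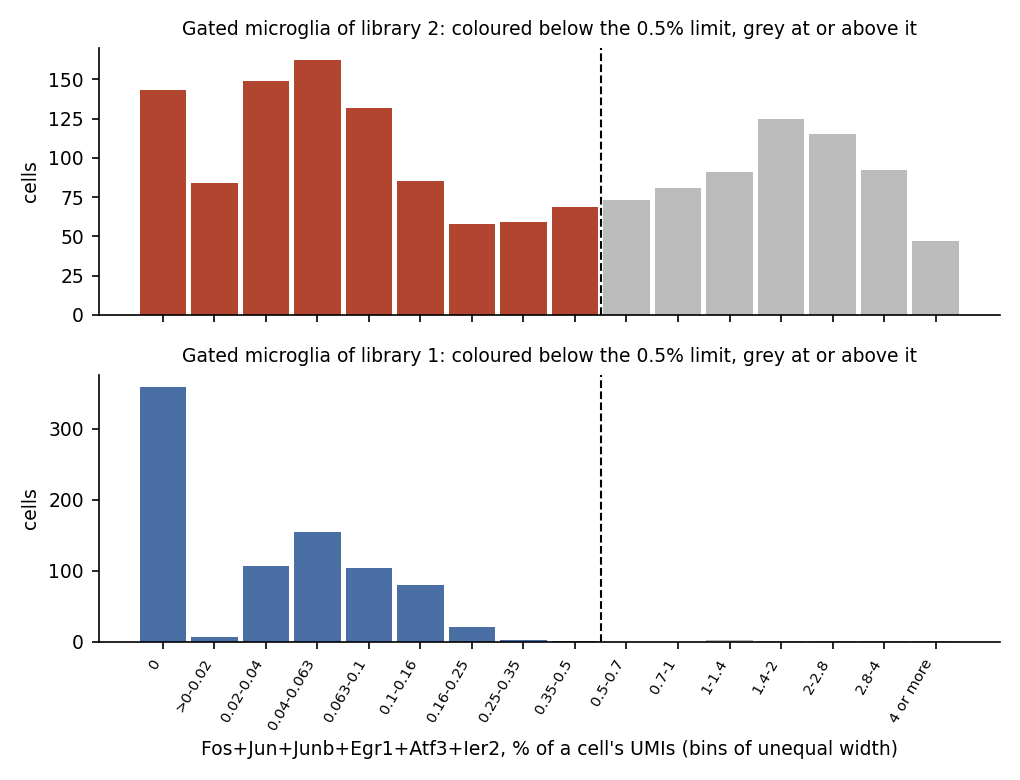
Number of gated microglia (y axis, with its own scale in each panel) by the share of a cell's UMIs in the 6 immediate early gate genes (x axis, bins of unequal width), for library 2 (top) and library 1 (bottom). The dashed line is the 0.5% limit: in library 2 cells lie on both sides with no empty bin, 941 below and 624 at or above it, and in library 1 there are 835 below and 6 at or above it.

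Low microglia had a median of 6034 UMIs per cell (interquartile range 4814 to 7280, full range 1009 to 29507) and 2499 genes, and together held 5758153 UMIs. High microglia had a median of 7522 UMIs (range 1000 to 19559) and 2626 genes, and held 4884863 UMIs. The mitochondrial share was 4.55% in the median low cell and 5.09% in the median high cell. Ribosomal protein genes took 81612 CPM in low and 94223 CPM in high microglia. Within low microglia the median depth had no trend along the immediate early share, at 5874, 6516, 5838, 5915.5 and 6121 UMIs in 5 bins from under 0.025% to the limit. In 3 bins of high microglia it was 6739, 7621.5 and 7848.5 UMIs. In cells of 5000 to 8000 UMIs alone, a range chosen after seeing the data, 129 genes were lower and 65 higher. The libraries shared 19 barcode sequences, of which 1 belonged to a low cell.

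The gate genes themselves describe the choice. In low microglia P2ry12 stood at 3416 CPM, Cx3cr1 at 4882, Tmem119 at 1696, Csf1r at 3482, Selplg at 3452.5 and Gpr34 at 2443, together 19372 CPM. In high microglia the same 6 genes together gave 17729 CPM, with P2ry12 at 2763 CPM. Of the immediate early gate genes, Junb (459 CPM) and Jun (432 CPM) were the most abundant in low cells, above Egr1 (50.2), Fos (37.0), Atf3 (30.9) and Ier2 (24.5). In high cells Jun reached 6888 CPM, Junb 5444 and Fos 3260. Near the microglia gate, 13 low cells lay between 0.5 and 0.6% (median 6934 UMIs), and 12 barcodes with the same low immediate early share lay between 0.4 and 0.5% (median 7861 UMIs).

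Microglia markers outside the gate were present in every low cell. All 12 further microglia markers were detected, they summed to 47113 CPM in low microglia (45921 in high), and each of the 941 cells had at least 0.5% of its UMIs in them. After each cell was thinned to 1000 UMIs, 99.8% of low cells and 99.8% of high cells held a UMI of the complement gene C1qa, but 5.6% of 195 barcodes gated on endothelial markers and 1.96% of 51 barcodes gated on oligodendrocyte markers did. The endothelial barcodes had at least 0.5% and the oligodendrocyte barcodes at least 1% of UMIs in the markers of their type, and both had under 0.1% in the 6 microglia gate genes. Their median depths were 8417 and 11202 UMIs before thinning. Fcrls, an Fc receptor-like gene of microglia, was seen in 78.9% of thinned low cells and 1.5% of the endothelial barcodes.

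The homeostatic programme was at about the same level in both classes. Of 33 further homeostatic genes compared, 0 were higher and 0 lower, beside 1.08% higher and 1.96% lower of all genes compared. The median log2 ratio was 0.09 beside 0.19 for all genes, and the sum was 120575 CPM in low and 115493 CPM in high microglia. Cst3, which encodes the protease inhibitor cystatin C, was the most abundant at 51756 and 48788 CPM. C1qa had 8926 and 8668 CPM, Ctss (cathepsin S) 5118 and 5247, Fcrls 1745 and 1574, and Siglech, a sialic acid-binding lectin, 1710 and 1489. P2ry13, a second nucleotide receptor, had 615 and 557 CPM.

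Transcription factors of microglia also differed by less than 2 times, with 0 of 19 called and a median log2 ratio of 0.13. Over all genes compared, 1.08% were higher, 1.96% were lower and the median log2 ratio was 0.19. Sall1, which maintains microglial identity, had 351.5 CPM in low and 294 CPM in high cells, a ratio of 1.195 (1.12 to 1.28). On the log2 scale the ratio of Sall1 is 0.26, near the median of all genes compared, so it is not read as a difference. Maf, a factor of the macrophage lineage, had 1099 and 765 CPM, a ratio of 1.44 (1.38 to 1.495). Mef2c had 1208 and 1006 CPM, and Irf8 had 625 and 563 CPM.

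Immediate early genes outside the gate were the group with the largest number of lower genes. Of 41 listed, 30 could be compared, and 25 of the 30 were lower and 0 higher, with a median log2 ratio of -2.25. Over all genes compared, 1.96% were lower and 1.08% higher, and the median log2 ratio was 0.19. The listed genes summed to 5770 CPM in low and 26203 CPM in high microglia. The 6 most abundant in low cells were Rhob (1173 CPM in low, 2985 in high), Zfp36l2 (474 and 565), Btg1 (473 and 1056), Zfp36l1 (445 and 1076), Sgk1 (392 and 805) and Jund (376 and 3627). Rhob, a small GTPase of the actin cytoskeleton, had a UMI in 93.8% of low cells, and after thinning to 1000 UMIs in 64.8% of low cells, 39.0% of endothelial-marker and 43.1% of oligodendrocyte-marker barcodes. Zfp36l2, whose product destabilises messenger RNA, had a ratio of 0.84 and was not called.

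Several feedback regulators were lower still. Zfp36 (tristetraprolin, which speeds the decay of cytokine RNA) had 308 CPM in low and 3591 in high microglia, a ratio of 0.09 (0.08 to 0.09). Btg2, an antiproliferative regulator, had 277 and 2888 CPM. Socs3, an inhibitor of cytokine receptor signalling, had 84.2 CPM and a UMI in 25.7% of low cells, against 1932 CPM and 91.5% of high cells. Dusp1, a phosphatase of MAP kinases, had 30.6 and 948 CPM, and 53.4% of its 176 UMIs in low microglia came from 10 cells. Fosb had 3.65 CPM in low cells (21 UMIs) and 344 CPM in high cells, a ratio of 0.01 (0.01 to 0.02). It passed the filter only through high microglia, so its call is in part fixed by the filter. In thinned cells Socs3 was detected in 6.6% of low, 65.9% of high and 15.4% of endothelial-marker barcodes. Btg2 was detected in 19.4%, 77.6% and 28.2%.

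**Figure D2:**
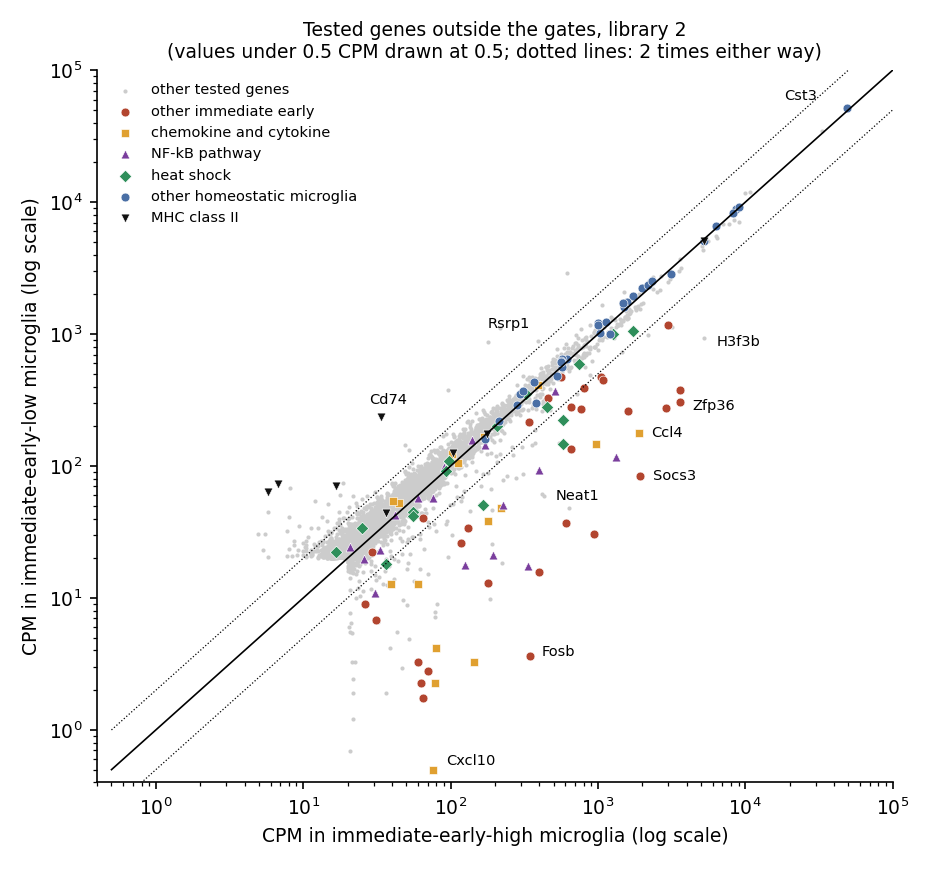
CPM of each compared gene in high microglia (x axis, log scale) and low microglia (y axis, log scale) of library 2. Grey points are genes outside the 6 coloured lists, the solid line marks equal levels and the dotted lines a difference of 2 times. Homeostatic genes such as Cst3 sit on or near the solid line, 25 of 30 immediate early genes and 10 of 16 chemokines and cytokines lie below the lower dotted line, and Cxcl10, with 0 UMIs in low cells, is drawn at the bottom edge.

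Chemokines and cytokines divided into 2 kinds. Of 16 compared genes, 10 were lower in low microglia, 0 were higher, and the median log2 ratio was -2.20. The shares over all genes compared were 1.96% lower and 1.08% higher. Tnf, Il1b and Cxcl10, whose values follow, passed the filter only through high microglia, so their calls are in part fixed by it. The inducible chemokine Ccl4, which recruits leukocytes (chr11:83662584-83664683 on GRCm38), had 178 CPM in low and 1888 CPM in high cells, a ratio of 0.09 (0.09 to 0.10). Ccl3 on the same chromosome (chr11:83647844-83649355) had 146 and 976 CPM, a ratio of 0.15 (0.14 to 0.16). In contrast Tgfb1, a cytokine that microglia themselves require, had 413 and 394 CPM, Ccl9 had 167 and 168, Ccl6 had 122 and 102, and Il16 had 106 and 112. None of these 4 was called.

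The cytokines that mark an inflammatory response were close to the detection floor in low cells. Tnf had 19 UMIs in all 941 cells (3.30 CPM) and 144 CPM in high microglia. Il1b had 13 UMIs (2.26 CPM) in low cells and 78.6 CPM in high cells. Il1a was detected more broadly, at 48.3 CPM and in 22.1% of low cells, with 220 CPM in high cells. Cxcl10 had 0 UMIs in low and 374 UMIs (76.6 CPM) in high microglia. Against the level of 3 counts over the class that a count of 0 allows (0.521 CPM), it was at least 147-fold lower, but its UMIs in high microglia came from 3.53% of cells.

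Within low microglia Ccl3 and Ccl4 belonged to few cells. At least 10 UMIs of the pair were found in 48 cells (5.10%), which held 80.5% of the pair's UMIs in the class. Without those 48 cells the sum of the pair was 67.3 CPM in place of 324 CPM. In high microglia 309 cells (49.5%) reached 10 UMIs. The median immediate early gate share of the 48 cells was 0.294%, which is closer to the limit than the class median of 0.0531%. Thinned to 1000 UMIs, 6.2% of low cells and 46.5% of high cells held a Ccl4 UMI, beside 1.0% of endothelial-marker barcodes and 0 of 51 oligodendrocyte-marker barcodes, which allows a share of up to 5.88%.

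In the NF-kB pathway 7 of 17 compared genes were lower and 0 higher, beside 1.96% and 1.08% of all genes compared. The median log2 ratio was -0.47. The 7 lower genes were the inhibitor gene Nfkbia, its family members Nfkbid and Nfkbiz, the inhibitor gene Tnfaip3, the targets Icam1 and Cd83, and the subunit gene Relb. Nfkbia, which encodes the inhibitor that holds NF-kB in the cytoplasm, had 116 CPM in low and 1326 CPM in high microglia, a ratio of 0.09 (0.08 to 0.09). Icam1, an adhesion molecule, had 93.4 and 401 CPM, and Nfkbiz, which encodes a nuclear regulator of NF-kB, had 17.5 and 335 CPM. Relb had 10.9 and 30.5 CPM, and both Nfkbiz and Relb passed the filter only through high microglia. The subunit genes Nfkb1 (157 and 140 CPM) and Rel (97.8 and 90.5 CPM) and the coreceptor gene Cd14 (368 and 510 CPM) were not called. Nfkbia was not particular to microglia: thinned endothelial-marker barcodes held a UMI of it in 50.8%, low cells in 10.6% and high cells in 51.1%.

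Heat shock genes that were lower were inducible ones, but not every inducible gene was lower. Of 16 genes, Hspa1a, Hspa1b, Hspb1 and Dnajb1 (4 genes) were lower and 0 higher, beside 1.96% and 1.08% of all genes compared. The median log2 ratio was -0.33, and the sum was 4267 CPM in low and 6429 CPM in high cells. The constitutive chaperone genes Hspa8 (1060 and 1738 CPM), Hsp90ab1 (995 and 1259 CPM) and Dnaja1 (354 and 327 CPM) were not called. Hsp90aa1, the inducible counterpart of Hsp90ab1, was not called either, with a log2 ratio of -0.70 beside -0.71 for Hspa8. The inducible Hspa1b had 222 CPM in low and 578 CPM in high cells, a ratio of 0.38 (0.36 to 0.41). Its near-identical neighbour Hspa1a had 148 and 580 CPM. Reads of these 2 copies can be split or lost between them, so their separate values are uncertain. Hspb1 had 18.1 and 36.6 CPM, with most of its UMIs in low microglia from 10 cells, and Dnajb1 had 51.1 and 165 CPM. Hspb1 passed the filter only through high microglia. Hspa1a and Hspa1b were also found outside microglia: 28.7% and 30.8% of thinned endothelial-marker barcodes held a UMI of them, beside 8.0% and 9.5% of low cells.

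Low cells with heat shock RNA and those with chemokine RNA overlapped in part. Of 941 cells, 71 (7.55%) held at least 10 UMIs of Hspa1a and Hspa1b, and these held 79.96% of the pair's UMIs in the class. In 9 cells both pairs reached 10 UMIs, which is 12.7% of the 71 heat shock cells, beside 5.10% chemokine cells in the whole class, and 18.8% of the 48 chemokine cells, beside 7.55% heat shock cells in the class. In high microglia 71 cells reached both, 48.3% of 147 heat shock cells (49.5% in the class) and 22.98% of 309 chemokine cells (23.6% in the class). The median depth of the low heat shock and chemokine cells was 6309 and 6924 UMIs.

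Cells were next ordered by their immediate early share in 8 bins, 5 of them within low microglia. Genes differed in where along this axis they were high. Ccl4 had 20.1, 42.1, 37.9, 171 and 764 CPM in the 5 bins of low cells, then 1077, 2016 and 2207 CPM in the 3 bins of high cells. Hspa1b had 55.4, 45.5, 201, 265 and 671 CPM, and then 590, 676 and 490 CPM. So cells between 0.2 and 0.5%, still within the low class, carried Hspa1b at the level of the high cells. Socs3 climbed in every bin, from 26.3 to 270 CPM in low and from 678 to 2923 CPM in high cells.

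The NF-kB targets and Il1a differed less between the low bins. Nfkbia had 102, 103, 118, 139 and 132 CPM over the 5 low bins, a span within its counting intervals for neighbouring bins, and then 361, 922 and 2174 CPM. Cd83, an activation marker, had 38.8, 54.5, 39.4, 61.0 and 68.8 CPM, then 69.2, 167 and 364 CPM. Il1a stayed between 41.1 and 57.9 CPM in the low bins and reached 364 CPM at 2% or more. Between the first and last low bin the counting intervals of Nfkbia and Il1a overlap, and those of Cd83 (29.3 to 50.3 CPM and 53.5 to 87.1 CPM) do not. Nfkbiz had 11.1 CPM in the first and 24.9 CPM in the last low bin. Cx3cr1, the fractalkine receptor gene, lay between 4796 and 4982 CPM in the low bins and was 4397 CPM in the last bin. P2ry12 lay between 3216 and 3537 CPM in the low bins and was 2635 CPM in the last bin.

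**Figure D3:**
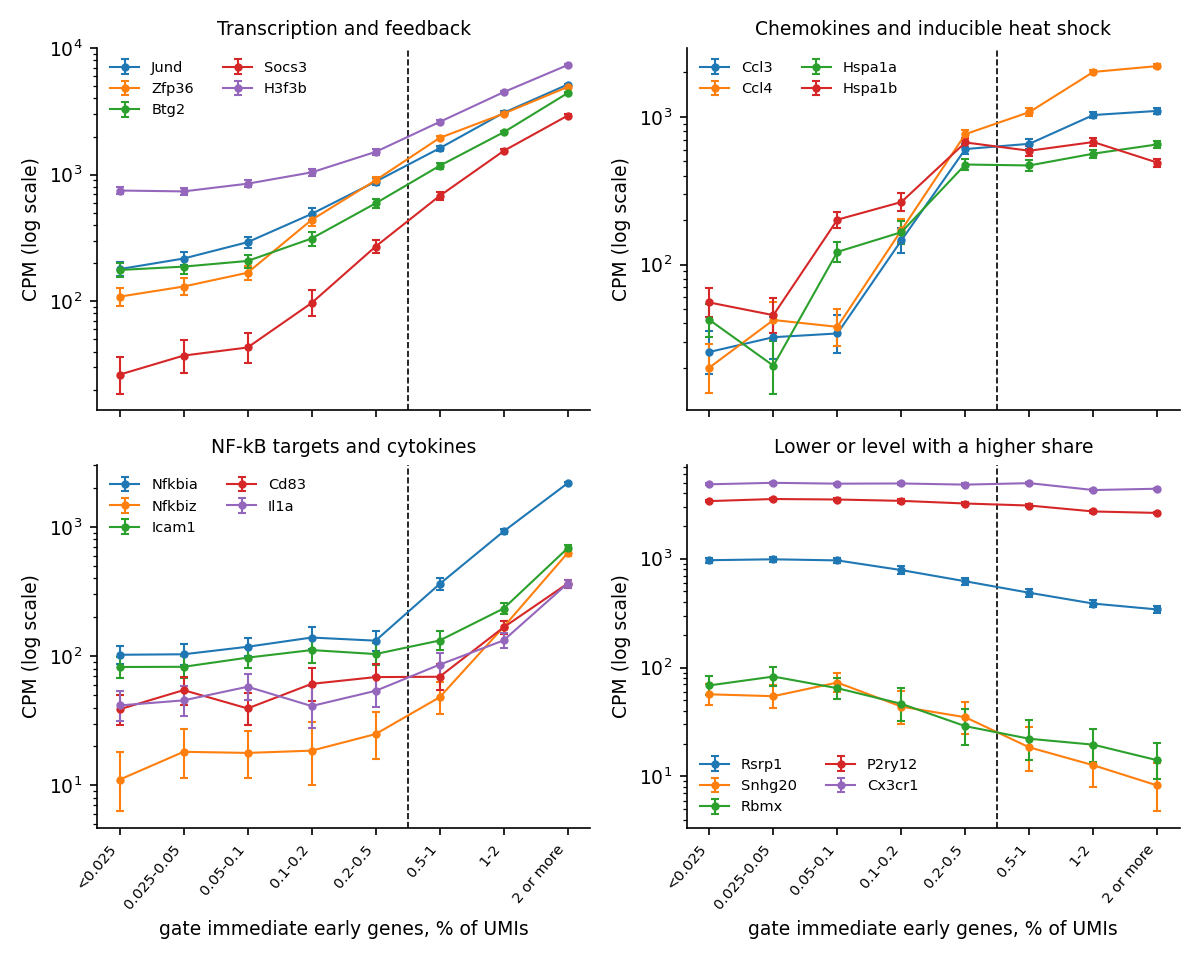
CPM (y axes, log scale) of named genes in library 2 microglia grouped in 8 bins of the immediate early gate share (x axes), with bars for the 95% Poisson interval of the count. The dashed line is the 0.5% limit: Ccl4 and Hspa1b reach 764 and 671 CPM in the last bin before it, Nfkbia is at 132 CPM there, and Rsrp1 and Snhg20 are lower in each later bin.

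Outside all lists, the lowest ratios were those of Gem, Gm26532, Gdf15, Tnfsf9, Ccrl2, Adamts1 and 6 further transcripts, most of them unnamed gene models. Gem, a small GTPase induced by mitogens, had 9.90 CPM in low and 185 CPM in high microglia. Gm26532, annotated as a long intergenic noncoding RNA, had 48.1 and 636 CPM. Ccrl2, a chemokine-binding receptor, had 18.4 and 224 CPM. Gem, Gdf15, Tnfsf9 and Ccrl2 passed the filter only through high microglia. Adamts1, a secreted metalloprotease, had 25.7 and 191 CPM, and 62.2% of its UMIs in low microglia came from 10 cells. H3f3b, a gene of the replacement histone H3.3 picked after its values were seen, was among the most abundant genes called, at 941 CPM in low and 5270 CPM in high cells. It was detected in 92.8% of low cells.

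Long nuclear RNAs did not move as 1 group. Neat1, the scaffold of paraspeckles, had 59.4 CPM in low and 427 CPM in high microglia, a ratio of 0.14 (0.12 to 0.16). Malat1, which is transcribed from the neighbouring locus and sits in nuclear speckles, had 34703 and 33424 CPM, a ratio of 1.04 (1.03 to 1.05). Of 7 nuclear-retained RNAs compared, Neat1 was the 1 called. In the apoptosis list 2 of 12 were lower, the survival gene Mcl1 (278 and 659 CPM) and the cell cycle inhibitor gene Cdkn1a (21.5 and 46.7 CPM). Hmgb2, a chromatin protein gene, was the 1 of 6 cell cycle genes called lower, at 71.0 and 162 CPM. The share of lower genes over all genes compared was 1.96%.

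Several lists held no called gene in either direction. Of all 6578 genes compared, 1.96% were lower and 1.08% higher, so 0 or 1 called gene does not set lists this short apart. The lists with none were the unfolded protein response (13 compared, 3848 CPM in low and 3720 in high), complement (8, 25286 and 24884), interferon response (12, 760 and 705), Toll-like receptors (16, 4238 and 4212), Fc receptors and Siglecs (8, 7598 and 6805), purinergic genes (7, 1793 and 1633), lysosome (26, 39050 and 38783), phagocytosis (14, 4844 and 4534), glycolysis (15, 2562 and 2636) and mitochondrially encoded genes (13, 39813 and 45431). In the unfolded protein response, Hsp90b1, the chaperone of the endoplasmic reticulum, had 948 and 834 CPM, and Xbp1 201 and 173 CPM. Of 18 MHC class I genes 1 was lower, H2-Q4 (14.9 and 30.7 CPM), with a sum of 4321 and 4380 CPM. H2-Q4 passed the filter only through high microglia. Of 16 genes of cytoskeleton and adhesion 1 was lower, the cytoplasmic actin gene Actg1 (350 and 719 CPM), with a sum of 23908 and 25083 CPM. Actb, the other cytoplasmic actin, had 7077 CPM in low and 9006 CPM in high cells, a ratio of 0.79. In the disease-associated list 1 of 14 genes was higher, the pyrophosphate transporter gene Ank (30.4 and 14.9 CPM), and 0 were lower, with a sum of 22629 and 21854 CPM. Ank passed the filter only through low microglia.

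**Figure D4:**
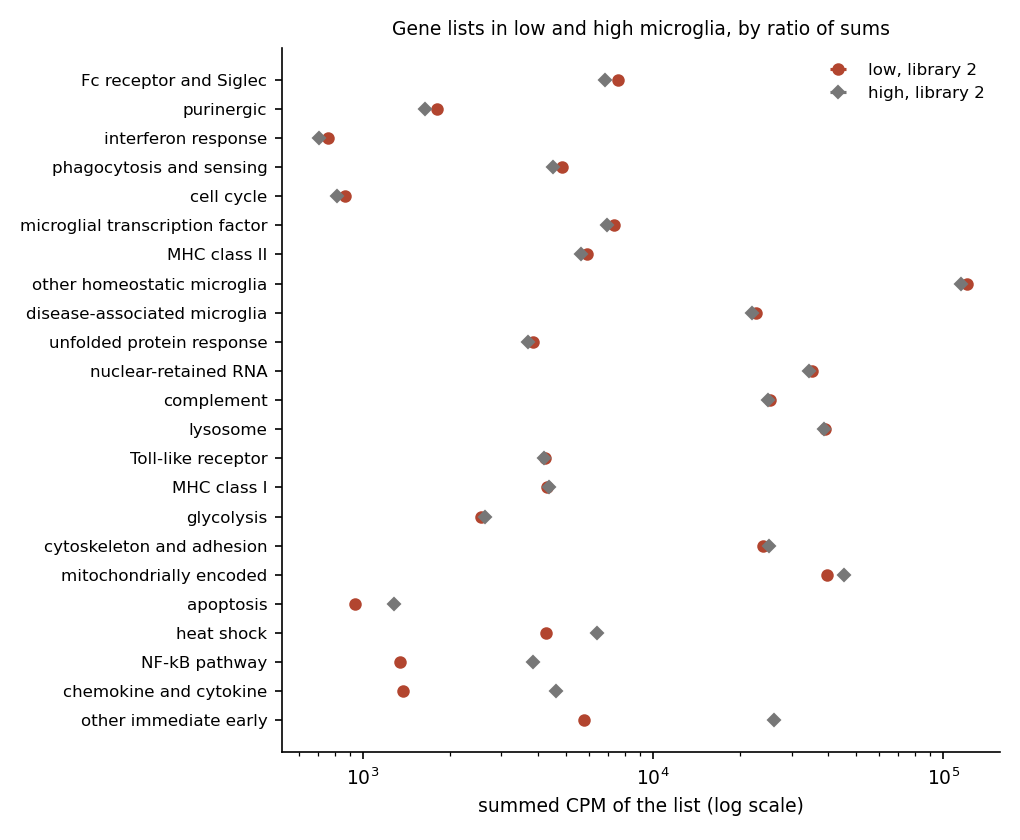
Summed CPM (x axis, log scale) of each gene list (y axis) in low microglia (circles) and high microglia (diamonds) of library 2, ordered by the ratio of the sums; counting intervals are narrower than the symbols. The low circle lies left of the diamond by more than 2 times for other immediate early genes, chemokines and cytokines, and the NF-kB pathway, and the symbols touch or nearly touch for most other lists.

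The 71 genes higher in low microglia were of 2 sorts. For 30 of them, 10 cells held at least 50% of the gene's UMIs in the class. The other 41 were spread over more cells, and 19 of these 41 were not protein coding by the annotation. Of all 6578 genes compared, 63 were that concentrated, and 96.2% were protein coding. Of the 129 lower genes 24 were concentrated and 29 were not protein coding, 23 of these among the spread ones. A lower share of protein-coding genes than among all genes compared was thus found in both directions, 73.2% of higher and 77.5% of lower genes.

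Most of the spread genes named here had low levels. Snhg20, a long noncoding RNA named as a small nucleolar RNA host gene, had 54.5 CPM in low and 12.1 CPM in high microglia, a ratio of 4.51 (3.41 to 6.07). It was detected in 27.4% of low and 8.65% of high cells. Rbmx, an RNA-binding protein of splicing, had 60.8 and 17.8 CPM, a ratio of 3.41 (2.69 to 4.37). The zinc finger gene Zfp322a had 51.8 and 14.7 CPM, and the noncoding transcript 5330438D12Rik had 32.3 and 7.78 CPM. Snhg20, Rbmx, Zfp322a and 5330438D12Rik were each below 20 CPM in high microglia. They passed the filter only through low microglia, so their calls are in part fixed by it. Rsrp1, a serine- and arginine-rich protein gene, was picked after its values were seen because it was the most abundant spread gene, at 887 and 390 CPM, a ratio of 2.28 (2.16 to 2.40).

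Along the immediate early share Rsrp1 was level at 969, 988 and 965 CPM in the first 3 bins and then 786, 620, 486, 387 and 342 CPM. Snhg20 had 56.8, 54.5, 72.8, 43.7 and 34.9 CPM in the low bins and 18.5, 12.7 and 8.24 CPM in the high bins. Rsrp1 was thus already lower, beyond its counting intervals, in low cells with a share above 0.1%, while the intervals of Snhg20 in neighbouring bins overlap. In thinned cells Rsrp1 was seen in 58.8% of low and 32.9% of high microglia, and in 34.4% of endothelial-marker and 47.1% of oligodendrocyte-marker barcodes, so its RNA was not specific to microglia.

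The concentrated genes came from a few members. Class II antigen presentation had the largest number of higher genes of the programme lists, 4 of 8 (Cd74, H2-Aa, H2-Ab1 and H2-Eb1), with a median log2 ratio of 1.18. Among all genes compared 1.08% were higher, and the median log2 ratio was 0.19. Cd74, the invariant chain, had 235 CPM in low and 34.0 CPM in high microglia, H2-Eb1 had 72.6 and 6.76 CPM, and H2-Ab1 had 70.2 and 16.6 CPM. H2-Eb1 and H2-Ab1 passed the filter only through low microglia. At least 10 UMIs of the 4 genes were found in 10 low cells, which held 94.0% of these UMIs. Without them the sum was 27.1 CPM in place of 442 CPM. In high microglia it was 63.1 CPM, and 34.1 CPM without the 2 cells that reached 10 UMIs. The 10 low cells had a median depth of 9965.5 UMIs.

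Haemoglobin RNA behaved likewise. The 4 genes Hba-a1, Hba-a2, Hbb-bs and Hbb-bt with Alas2 summed to 5243 CPM in low and 1112 CPM in high cells, and 3 low cells held 93.2% of it. Without them the sum was 361 CPM, beside 288 CPM in high microglia without 1 such cell. In thinned cells a Hbb-bs UMI was found in 19.2% of low cells, 15.2% of high cells, 12.8% of endothelial-marker and 15.7% of oligodendrocyte-marker barcodes. Where this RNA came from was not tested. Pericyte and smooth muscle markers gave 135 CPM in low and 25.4 CPM in high microglia, led by Vtn at 67.9 CPM, and 4 cells held 624 of their 780 UMIs. Apoe, a lipid carrier gene, was not called, at 1657 and 1059 CPM, and 50.6% of its UMIs in low microglia came from 10 cells.

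**Figure D5:**
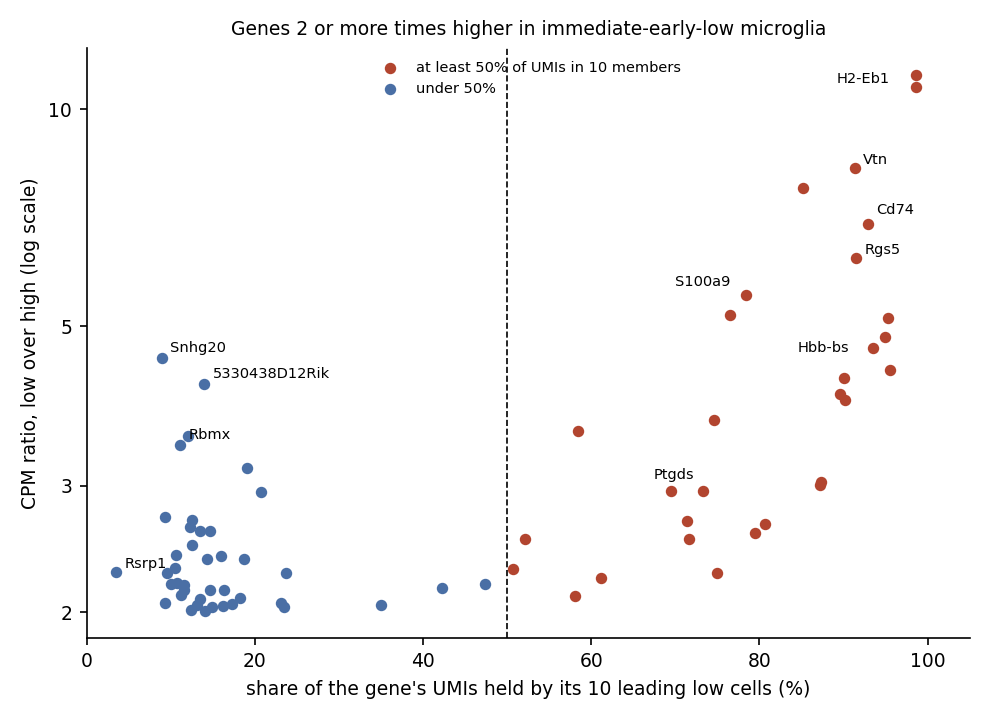
Ratio of CPM, low over high microglia (y axis, log scale), of the 71 genes called higher, against the share of the gene's UMIs in low microglia that its 10 leading cells held (x axis, %). Red points right of the dashed 50% line are the 30 concentrated genes, among them H2-Eb1, Cd74, Hbb-bs and Vtn, and blue points are the 41 spread genes, among them Snhg20 and Rsrp1.

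Markers of other cell types were counted in each low cell. No doublet caller was run. At least 0.5% of UMIs in the markers of some other type was found in 101 of 941 low cells and in 20 of 624 high cells. In 79 of the 101 the choroid plexus list was reached, and without that list 22 low and 5 high cells remained. Choroid plexus markers summed to 2124 CPM in low and 1535 CPM in high cells, nearly all of it Ttr (2084 and 1505 CPM), a secreted thyroxine carrier. Ttr was in 84.1% of thinned low cells, 63.1% of endothelial-marker and 68.6% of oligodendrocyte-marker barcodes, so it is not read as expression, and why its share was higher in low cells was not tested. Border-associated macrophage markers summed to 371 and 233 CPM, and 7 low cells and 0 high cells held at least 20 such UMIs.

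Signals of blood-borne cells were small. Neutrophil markers summed to 54.7 CPM, of which 1 cell held 69.5%, with Ly6g and Ltf at 0. Monocyte markers summed to 34.2 CPM with Ly6c2 and Chil3 at 0, and T or NK cell markers to 1.74 CPM with Cd3e and Trac at 0. Astrocyte markers gave 419 CPM in low and 289 CPM in high cells, oligodendrocyte markers 249 and 149 CPM, endothelial markers 190 and 164 CPM, and neuron markers 79.9 and 73.9 CPM. Fibroblast markers gave 18.4 and 3.89 CPM, oligodendrocyte precursor markers 14.6 and 5.32 CPM, B cell markers 273 and 246 CPM with Ms4a1 and Igkc at 0, and dendritic cell markers 8.51 and 7.98 CPM. Without the low and high cells that reached 0.5% in another type's markers, 49 genes were higher and 126 lower.

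Rare states were also looked for by count. At least 20 UMIs of the interferon response list were found in 24 low cells (2.55%) and in 14 high cells (2.24%). At least 5 UMIs of the proliferation genes Mki67 and Top2a were found in 2 low cells and 1 high cell. Spp1, a gene of activated microglia, reached 5 UMIs in 2 low cells and in 0 high cells.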

How the data were processed

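Raw UMI counts of 41605 genes by barcode were deposited by the authors, who made them with Cell Ranger 3.0.1 on GRCm38.p5, per the submitters' processing notes. The values are whole numbers and were not normalized. All barcodes have at least 500 UMIs, by a step not given in the sources used here. Library 1 held 18783691 UMIs and library 2 held 29356086. Its files carry another number than its title, for no stated reason. Counts were summed over cells of a class and divided by the class total (CPM). Intervals are exact Poisson, Clopper-Pearson and conditional binomial (scipy 1.17.1). The ratio step was tested on simulated data with independent Poisson counts, so concentration of UMIs in a few cells was not covered. The simulated ratios were also corrected for the change in total, and the real ratios were not. For shares of cells, every cell was thinned to 1000 UMIs, and no cell compared had fewer. GENCODE M21 gave gene positions. Figures used matplotlib.

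The cells, the 25 programme lists and 16 cell type lists were chosen with earlier results of these data known. Named genes were up to 6 of each list with the highest CPM in low microglia, and outside the lists the 12 highest and 12 lowest ratios by interval bound. Other list members named were chosen after their values were seen. Alternatives were other gates, depths, scalings, filters and thresholds. A few listed genes are not reported here.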

Additional observations from a re-analysis of the deposited data

How the results depend on the processing

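No paired analysis was possible because library 2 is a single pool, and no replicate could be left out. The share of low cells among microglia was 53.7% with the immediate early limit at 0.3%, 70.0% at 1%, 64.8% with a mitochondrial limit of 5%, and 64.9% in cells of 5000 to 8000 UMIs, a range chosen after seeing the data. Genes called higher and lower numbered 108 and 82 in cells thinned to 1000 UMIs, where 4722 genes could be compared, and 1265 and 443 of 13815 with no filter beyond 10 UMIs. At a fold of 1.5 there were 388 higher and 174 lower genes, and 33 and 103 when the interval bound also had to pass 2. Under the other alternatives the numbers were 49 to 81 higher and 101 to 142 lower. Direction was followed for the genes named by rule and for those read along the immediate early share. None of these that was called lower changed direction. Other lower genes named in the text were not followed, among them Cxcl10, Il1b, Relb, Nfkbid, Tnfaip3, Hspb1, Dnajb1, Cdkn1a, Actg1 and H2-Q4.

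Among the called genes that were followed, all changes of direction were in genes called higher. In log2 ratio, a microglia gate of 1% gave Cd74 -0.12, H2-Eb1 -1.53, H2-Ab1 -0.75, Ly6c1 -0.44, Hbb-bs -1.63, Hba-a1 -1.80, Hba-a2 -1.81, Hbb-bt -1.28 and Mal -0.40. A mitochondrial limit of 5% gave Ly6c1 -0.76, Rgs5 -0.50, Ptn -0.39, Mal -0.41, Ptgds -0.45 and Igfbp7 -1.05. Without cells at 0.5% of another type's markers, Slc1a2 was -0.24, S100a8 -0.64 and Ptn -0.30. Cells of 5000 to 8000 UMIs gave H2-Ab1 -0.71, Ly6c1 -0.64, Hbb-bs -0.0203, Hba-a1 -0.14, Ptn -0.68, Ptgds -0.65 and Igfbp7 -0.96. Leaving out each gene's 10 leading cells per class, also chosen after seeing the data, gave H2-Ab1 -0.16, Slc1a2 -0.24 and S100a8 -0.30. Snhg20 was 2.46 and Rbmx 2.02 under that setting. A count of 0 over low microglia still allows 0.521 CPM.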

Other observations

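Library 1, which the labels put in no group either, held 841 microglia under the same gates, of which 835 (99.3%, Clopper-Pearson 95% interval 98.5 to 99.7%) were low and 6 were high. The 835 cells had a median of 2311 UMIs and a median immediate early gate share of 0.0344%. Their values are given as those of an unassigned library, next to the low microglia of library 2. The further microglia markers summed to 46640 CPM in library 1 and 47113 CPM in library 2. Rhob stood at 902 CPM beside 1173, Jund at 201 beside 376, Btg2 at 218 beside 277 and H3f3b at 777 beside 941.

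Ccl4 was at 34.1 CPM in the low cells of library 1 and 178 CPM in those of library 2, and Ccl3 at 29.8 and 146 CPM. Hspa1b was at 2.88 and 222 CPM, and Hspa1a at 1.92 and 148 CPM. Nfkbia was at 100 and 116 CPM, Icam1 at 116 and 93.4 CPM and Il1a at 52.8 and 48.3 CPM. Rsrp1 was at 1220 and 887 CPM, Snhg20 at 133 and 54.5 CPM and Rbmx at 94.6 and 60.8 CPM. With depths this different, shares were also read in cells thinned to 1000 UMIs: Hspa1b was found in 0.24% of the low cells of library 1 and 9.46% of those of library 2, and Ccl4 in 0.96% and 6.16%. The low classes also differed in immediate early share, with 13 cells of library 1 and 153 of library 2 between 0.2 and 0.5%. In library 2, 48 low cells held 80.5% of the Ccl3 and Ccl4 UMIs, and the pair summed to 67.3 CPM without them. Why the values differed was not tested.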
